A study of Mus musculus with 6 samples.

Results

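The receptors and bridging ligands of efferocytosis, the uptake of dying cells by phagocytes, were examined as a set of 8 genes: the receptors Mertk, Axl, Tyro3, Timd4 and Adgrb1, and the soluble ligands Gas6, Pros1 and Mfge8. Their members were all distinct ATAC-seq peaks that the deposited peak table assigned to 1 of these symbols, which gave 45 of the 92864 annotated peaks. Mertk had 15 peaks, Pros1 7, Tyro3 6, Axl and Adgrb1 5 each, Gas6 4, Mfge8 2 and Timd4 1. By the table's annotation 20 peaks were of the promoter class (within 3 kb of a start site), 15 lay in introns, 1 in an exon and 9 between genes. ATAC-seq marks open chromatin by where the Tn5 transposase can insert adapters, so a higher count in a peak means more accessible DNA there and is no measure of RNA or protein.

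Chromatin came from myeloid cells of SB28 gliomas, an isogenic mouse brain tumour line grown orthotopically in the brain of mice labelled wild type. Microglia (MG), the resident macrophages of brain, were sorted as F4/80+ CD11b+ CD45lo cells with low or no LY6C, no LY6G and low or no CD49d. Bone marrow derived macrophages (BMDM) were sorted as F4/80+ CD11b+ CD45+ cells with low or no LY6C, no LY6G and high CD49d. Each group had 3 libraries, all from tumours, and the labels give neither age nor animal. P-values therefore measure the spread between libraries, which may be technical. That spread is pooled in part, and in some fits almost wholly, over all genes, promoters or peaks.

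Dying cells expose phosphatidylserine on their surface. TAM receptors (Tyro3, Axl and Mertk) are tyrosine kinases that do not touch this lipid themselves: Gas6 and Pros1 bind it and bridge it to the receptor, Gas6 to all TAM receptors and Pros1 to Tyro3 and Mertk. Mfge8 bridges the same lipid to alpha-v integrins, whereas TIM-4, the product of Timd4, and BAI1, the product of Adgrb1, bind it directly. Microglia are known for Mertk and Axl, and TIM-4 marks several populations of resident macrophages.

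The start regions of Mertk and Axl are shown because they stand for the opposite ends of the results on TAM receptors: the start-site peak of Mertk had the largest difference between the groups among the 6 start-site peaks, and that of Axl the smallest. Each sequence is the 250 bases before the RefSeq gene start (GRCm38.p6), 5′ to 3′ on the gene's strand, with motif matches in capitals. For Mertk, chr2:128698665-128698914 on the plus strand, the capitals mark 3 GC boxes. For Axl, chr7:25788734-25788983 on the minus strand, they mark 1 PU.1 core and then 1 GC box.
Mertk: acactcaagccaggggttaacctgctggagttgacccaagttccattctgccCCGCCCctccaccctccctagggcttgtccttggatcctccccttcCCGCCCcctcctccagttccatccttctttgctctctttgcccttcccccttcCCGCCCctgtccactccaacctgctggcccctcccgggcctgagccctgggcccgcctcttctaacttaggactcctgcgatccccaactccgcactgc
Axl: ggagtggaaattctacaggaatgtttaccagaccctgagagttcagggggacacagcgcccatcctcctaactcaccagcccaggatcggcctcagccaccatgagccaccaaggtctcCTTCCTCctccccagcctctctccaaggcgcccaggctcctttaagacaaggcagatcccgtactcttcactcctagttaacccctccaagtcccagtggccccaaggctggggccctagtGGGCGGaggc
Searched on both strands were the PU.1 core GAGGAAG, AP-1 TGANTCA, C/EBP TTGCNNAA, RUNX TGTGGTT, the GC box GGGCGG, the E-box CACGTG, an IRF element (a repeated GAAA) and the LXR direct repeat. Among 32851 mouse promoter windows of this length, 32.7% held a GC box, 10.6% the PU.1 core, 9.56% the C/EBP, 6.75% the AP-1, 6.02% the E-box, 4.40% the RUNX, 2.98% the IRF and 0.0152% the LXR motif. Of the 7 members with a window, 6 held GC boxes: Pros1 5, Gas6 and Mfge8 4 each, Tyro3 and Mertk 3 each and Axl 1, whereas Timd4 held 0. The single PU.1 core of Axl was the only other match in the 7 windows. The Mertk window was 63.6% GC with 7 CpG and the Axl window 60% GC with 5 CpG, against medians of 52.4% and 6 over all windows.

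Depth differed between libraries: MG had 12531808 to 23601865 reads in peaks and BMDM 4910448 to 19727511, so that 3 reads equalled 1.64 (MG 2) to 5.95 (BMDM 1) normalized counts. Values below are normalized counts, that is, reads divided by the authors' size factor of the library. Levels were compared with limma on log2(normalized count + 1) and are given as BMDM minus MG, centred so that the median feature differs by 0 (a shift of -0.27 for genes, -0.31 for promoters and -0.14 for peaks was removed), with Benjamini-Hochberg adjustment over all features. The summed level of 10 microglial markers was 8351 to 13501 in MG and 5419 to 6554 in BMDM, and that of 9 monocyte and macrophage markers 2694 to 3297 in MG and 4437 to 8119 in BMDM. One by one, 1 of the 10 passed an adjusted p of 0.05 in limma with the higher level in MG, as did 0.989% of all genes. Of the 9, 6 passed with the higher level in BMDM, as did 3.30% of all genes. The median differences were -0.23 and 1.98. Markers of other brain cells also had their highest sums in MG. The 8 astrocyte markers summed to 3360 to 6625 against 2475 to 2603, and 8 oligodendrocyte lineage markers to 5917 to 13933 against 4477 to 5525. The 7 neuronal markers summed to 1198 to 2790 against 960 to 1333, which overlapped. In limma 1 marker of each of these classes passed with the higher level in MG, and 1 astrocyte marker with the higher level in BMDM. The median differences were -0.16 for astrocyte, -1.26 for oligodendrocyte lineage and -0.32 for neuronal markers. The 6 endothelial markers summed to 5032 to 5970 in MG and 3942 to 5812 in BMDM, and 6 neutrophil markers to 611 to 682 in MG and 891 to 1384 in BMDM, where every BMDM library was the higher. The 6 shared myeloid markers summed to 6327 to 13803 in MG and 7310 to 12811 in BMDM. None of these markers was at 0 in all 6 libraries together. Chil3, Sox9, Stmn2, Dcx and Elane were also listed as markers but had no peak, so the sums leave them out.

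At the level of whole genes, with all peaks of a gene summed, 0 of the 8 genes passed an adjusted p of 0.05 in limma, where 4.29% of 18497 genes did. At an unadjusted p under 0.05 there were 2, Pros1 and Mfge8, where 16.9% of all genes had one, and limma-voom on the reads called 0, where it called 3.37% of all genes. In 3 genes, Mertk, Pros1 and Mfge8, every MG library lay above every BMDM library, a pattern that 21.3% of all genes showed. Differences ran from -0.73 for Gas6 to 1.02 for Timd4, with a median of -0.52. In sorted bulk cells, fewer cells with an open site and less opening per cell cannot be told apart.

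**Figure D1:**
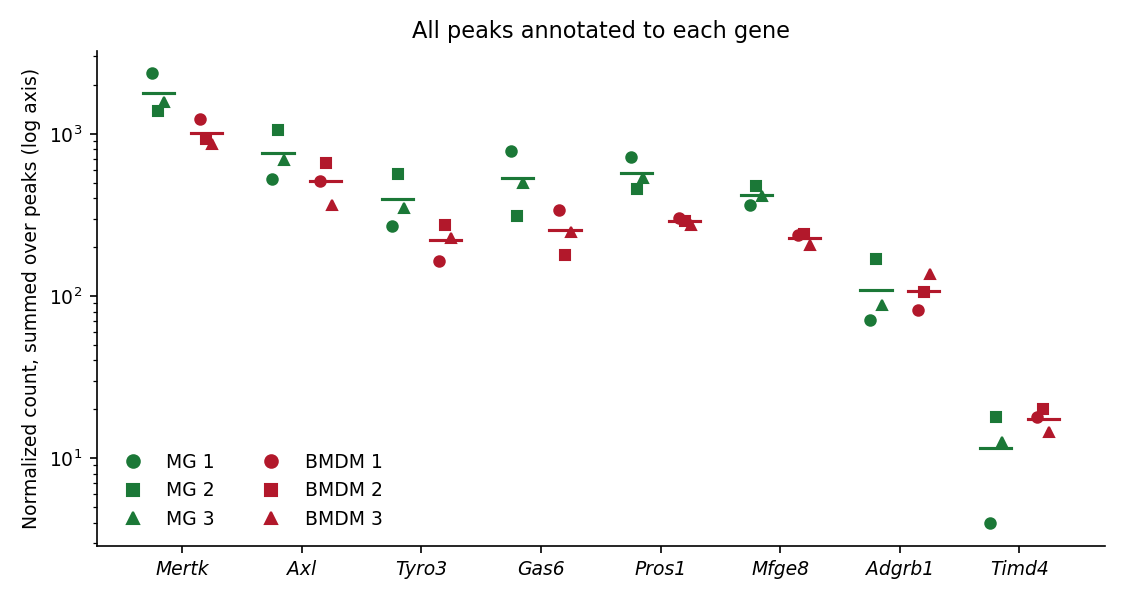
Normalized counts summed over all peaks of each gene (log axis), 1 point per library, with MG in green, BMDM in red and group means as bars. The MG and BMDM points separate for Mertk, Pros1 and Mfge8 and overlap for the other genes.

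Mertk, the TAM receptor most tied to clearance of apoptotic cells, had summed counts of 2362, 1386 and 1570 in MG 1 to 3 and 1238, 933 and 862 in BMDM 1 to 3. The groups did not overlap, yet the lowest MG and the highest BMDM library were close, and the difference of -0.52 ± 0.30 (SE, n = 3 per group) had an adjusted p of 0.445 in limma. Most of the separation lay in 1 peak. The start-site peak, chr2:128697818-128699492 (mm10), which covers the printed window, held 1034, 748 and 771 in MG and 413, 378 and 236 in BMDM. The lowest MG library, at 748, lay well above the highest BMDM library, at 413. The means were 851 ± 159 and 342 ± 93.9 (SD, n = 3), a ratio of 2.49, and the centred difference was -1.20 ± 0.33 with an adjusted p of 0.0517 in limma, just above the threshold. Over 17 alternative settings that p ran from 0.00601 to 0.298 and was below 0.05 in 9, and the difference kept its sign in all 17. With 1 library left out, the adjusted p in limma was 0.0434 without MG 1 and 0.0463 without MG 2, but 0.179 without MG 3 and 0.187 without BMDM 2. Of all peaks, 25.1% passed without MG 1 and 12.7% without MG 2, against 8.90% in the main fit. Without MG 3 or without BMDM 2 no peak of the whole table passed.

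The other 14 Mertk peaks did not separate the groups. All lie downstream, in introns, at an exon and at a further listed start about 72.2 kb into the gene, and MG and BMDM overlapped at each. Summed, they held 922 ± 361 in MG and 669 ± 140 in BMDM (SD, n = 3), a ratio of 1.38. Their centred differences ran from -0.61 to 0.08 and the lowest adjusted p was 0.448 in limma. The one with the most counts, in intron 4 at chr2:128745743-128748019, had 526, 191 and 282 in MG against 292, 179 and 165 in BMDM. Only MG 1 stood clear of the BMDM libraries there. At the further start, chr2:128770542-128771679, counts were 181, 90.2 and 122 in MG and 141, 107 and 101 in BMDM, a difference of 0.01 ± 0.34.

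**Figure D2:**
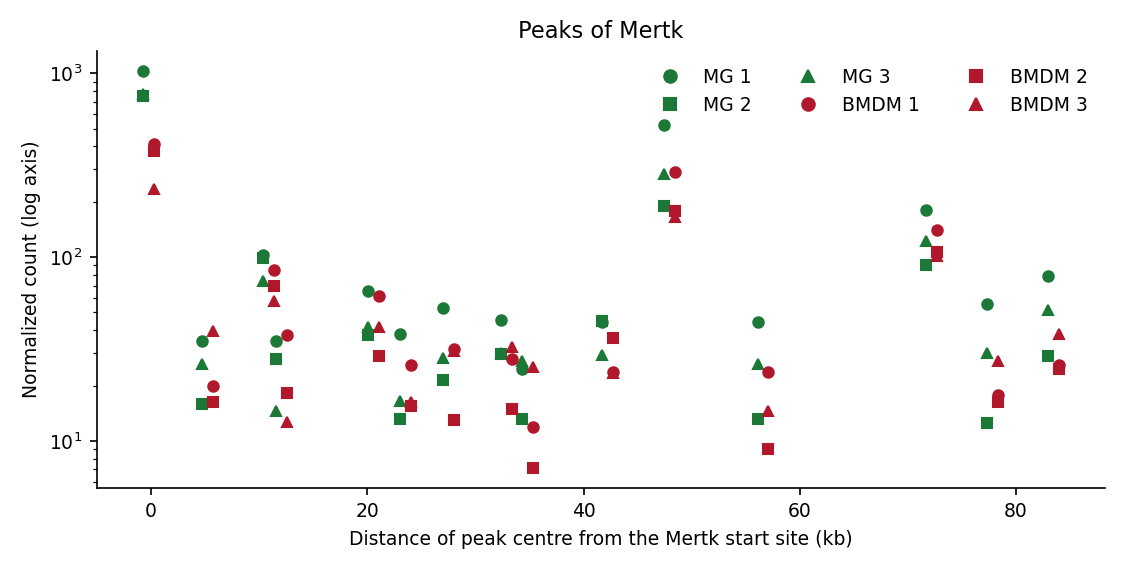
Normalized counts (log axis) of the 15 Mertk peaks by distance of the peak centre from the start site in kb, with MG libraries in green drawn left of BMDM libraries in red. The groups separate at the start site and overlap at the 14 peaks downstream.

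This shows in the share of Mertk reads that fell in the start-site peak, which does not depend on how libraries are scaled. It was 43.8, 54.0 and 49.1% in MG and 33.3, 40.5 and 27.3% in BMDM, or 48.9 ± 5.11% against 33.7 ± 6.62% (SD, n = 3). The groups did not overlap, and the difference of 15.2 percentage points had p = 0.1 in an exact two-sided permutation test, the smallest p that 3 against 3 libraries allow. The share was computed after the counts had been seen. Over 7118 genes with a mean of at least 30 reads in each part, the median difference was 2.90 points and every MG library was above every BMDM library in 25.6%. Among the other 5 genes with a start-site peak the groups overlapped: the differences were 5.30 points for Pros1, 3.92 for Tyro3, 3.33 for Mfge8, -0.12 for Gas6 and -0.62 for Axl, with exact permutation p from 0.4 to 0.9.

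**Figure D3:**
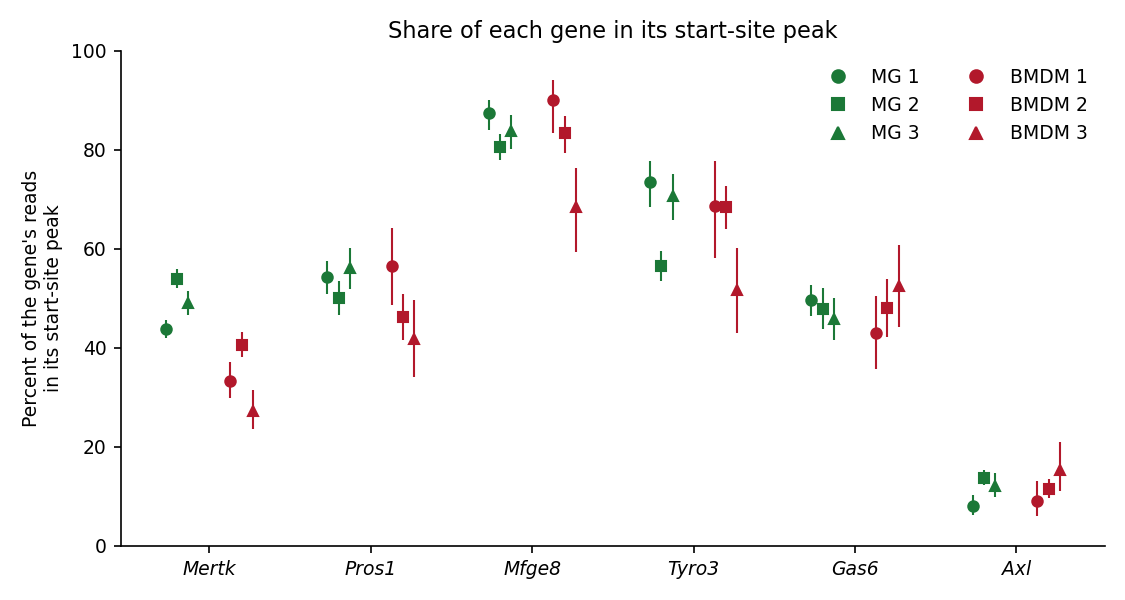
Percent of each gene's reads that fell in its start-site peak, 1 point per library with its 95% Wilson interval, which covers counting error only. The Mertk shares of MG, 43.8 to 54.0%, lie above those of BMDM, 27.3 to 40.5%, and the other genes overlap.

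Axl, the TAM receptor that is bound by Gas6 and is known to be raised in inflamed microglia, did not separate the groups as a whole. Its sums were 528, 1050 and 690 in MG and 510, 660 and 366 in BMDM, a difference of -0.28 with an adjusted p of 0.807 in limma. The groups overlapped, and MG 2 was the highest library. At the start site, chr7:25788317-25788961, counts were 42.0, 144 and 83.6 in MG and 45.6, 75.1 and 56.2 in BMDM, so MG 1 was below all 3 BMDM libraries and MG 2 and MG 3 above them (-0.33 ± 0.45, adjusted p = 0.733 in limma). The promoter-class peak with the highest mean, chr7:25776533-25777331, lies 11.8 kb into the gene and had 261, 151 and 196 in MG against 171, 227 and 116 in BMDM.

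The Axl peak with the most counts lay in intron 4, chr7:25781340-25782645, with 119, 619 and 340 in MG and 177, 231 and 125 in BMDM. Here too MG 1 was the lowest of all 6 libraries and MG 2 the highest, and the difference of -0.63 ± 0.54 had an adjusted p of 0.544 in limma. Without MG 1, where 25.1% of all peaks passed, it was -1.33 with an adjusted p of 0.00804 in limma. Without MG 2, where 12.7% passed, it was -0.14 (adjusted p = 0.906), so its size depended on the MG libraries used. Its sign turned only with MG 1 as the lone MG library, where it was 0.55.

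Tyro3, the third TAM receptor, is best known from neurons of the brain. Its sums were 271, 565 and 351 in MG and 165, 273 and 228 in BMDM, overlapping by MG 1 and BMDM 2 (-0.53, adjusted p = 0.485 in limma). The start-site peak, chr2:119799103-119800560, separated the groups, with 199, 319 and 248 in MG and 113, 187 and 118 in BMDM (-0.75 ± 0.33, adjusted p = 0.198 in limma). So did the peak just upstream, chr2:119798244-119798634, with 28.6, 92.9 and 36.9 in MG and 17.9, 20.1 and 19.9 in BMDM. Its difference was -1.09 ± 0.47 with an adjusted p of 0.189 in limma. It was -1.48 without MG 1 (adjusted p = 0.0136) and -0.64 without MG 2 (adjusted p = 0.528), where 25.1% and 12.7% of all peaks passed. The 3 intergenic peaks 38.5 to 47.7 kb downstream were each highest in MG 2, at 37.2 to 49.7, and lowest in MG 1, at 0 to 2.38.

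Each of the 3 bridging ligands had a start-site peak at which every MG library was above every BMDM library. Of 10276 start-site peaks 23.9% showed this pattern. Pros1, which encodes protein S, had sums of 716, 460 and 534 in MG against 302, 289 and 274 in BMDM. No BMDM library reached the lowest MG library, and the difference was -0.69 ± 0.27 with an adjusted p of 0.190 in limma. At its start-site peak, chr16:62853858-62854829, counts were 388, 230 and 299 in MG and 171, 133 and 114 in BMDM, with means of 306 ± 79.1 and 139 ± 28.7 (SD, n = 3), a ratio of 2.19 (-0.98 ± 0.32, adjusted p = 0.0858 in limma). Over 17 alternatives that p ran from 0.0335 to 0.347 and was below 0.05 in 4. Among them was the fit without MG 2 (0.0416), where 12.7% of all peaks passed. A peak in intron 1, chr16:62857632-62858251, also separated the groups, narrowly, with 155, 72.2 and 86.5 in MG and 31.7, 70.6 and 32.6 in BMDM (-1.09 ± 0.43, adjusted p = 0.146 in limma). Between them lies chr16:62856215-62856575, with 93.6, 35.5 and 73.9 in MG and 39.7, 27.8 and 12.7 in BMDM. There MG 2 was below BMDM 1 (-1.20 ± 0.51, adjusted p = 0.175 in limma).

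Gas6, the ligand shared by all TAM receptors, had sums of 786, 309 and 500 in MG against 337, 179 and 248 in BMDM. MG 2 was below BMDM 1, and the difference was -0.73 with an adjusted p of 0.304 in limma. It was -1.07 without MG 2 (adjusted p = 0.0305), -0.48 without MG 1 (0.426) and -0.45 without BMDM 2 (0.849). Of all genes 6.93%, 14.6% and 0% passed in these fits. Without MG 2 the spread is almost wholly pooled over genes. The start-site peak, chr8:13493231-13494799, had 390, 148 and 228 in MG and 145, 86.1 and 130 in BMDM, which did not overlap, with MG 2 only just above BMDM 1 (-0.86 ± 0.40, adjusted p = 0.216 in limma). This too depended on the library left out, from -1.25 without MG 2 (adjusted p = 0.0411) to -0.56 without MG 1 (0.333). In these fits 12.7% and 25.1% of all peaks passed. A peak 9.69 kb upstream, chr8:13503778-13504674, held similar counts, with 310, 125 and 228 in MG and 165, 70.6 and 85.1 in BMDM. Within each group the order of libraries was that of the start site, although BMDM 1 there exceeded MG 2.

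Mfge8, which encodes the integrin ligand lactadherin, had sums of 363, 474 and 416 in MG against 238, 242 and 207 in BMDM, again with no overlap (-0.59 ± 0.27, adjusted p = 0.278 in limma). Most of its reads, 83.9 ± 3.36% in MG and 80.6 ± 11.1% in BMDM (SD, n = 3), fell in the start-site peak, chr7:79148132-79149681, with 317, 382 and 349 in MG and 214, 202 and 141 in BMDM. The difference there was -0.79 ± 0.30 with an adjusted p of 0.130 in limma. Its means were 349 ± 32.4 and 186 ± 39.1 (SD, n = 3), a ratio of 1.88.

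The phosphatidylserine receptors Timd4 and Adgrb1 had few reads. Timd4 had 1 peak, chr11:46812438-46812762, with 3.97, 18.0 and 12.6 in MG and 17.9, 20.1 and 14.5 in BMDM. As few as 5 reads in MG 1 stood behind these values, and the gene's difference of 1.02 ± 0.71 was not distinguishable at this depth (adjusted p = 0.567 in limma). It was 0.38 without MG 1 and 1.43 without MG 2. Adgrb1, a gene best known from neurons and glia, had sums of 70.6, 168 and 87.5 in MG against 81.3, 106 and 136 in BMDM (0.32, adjusted p = 0.822 in limma). Without MG 1, or without BMDM 3, the difference was -0.01, and without MG 2 it was 0.69, so it had no stable sign. Its promoter-class peak with the highest mean, chr15:74589729-74590361, had 19.0, 36.1 and 15.5 in MG and 9.9, 25.9 and 47.1 in BMDM. The intergenic peak chr15:74595986-74596217 was the only member with every BMDM library above every MG library, at 19.8, 29.8 and 16.3 against 7.1, 10.4 and 7.8 (1.39 ± 0.54, adjusted p = 0.139 in limma). That pattern was shown by 17.0% of all peaks.

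Of the 8 genes, 6 had a peak over the RefSeq start, and in 5 of these, all but Axl, every MG library was above every BMDM library. Over 10276 start-site peaks 23.9% showed this pattern. The median centred difference of the 6 was -0.83, against -0.21 for all start-site peaks. No start-site peak of the set passed the adjusted threshold in limma, which 4.62% of all start-site peaks did. Per kb of peak, the mean normalized count in MG was 508 for Mertk, 315 for Pros1, 225 for Mfge8, 175 for Tyro3, 163 for Gas6 and 139 for Axl, and in BMDM 204, 143, 120, 95.6, 76.8 and 91.4 in the same order of genes. In MG every library had a higher density at Mertk than at any of the other 5 start sites, and the ranges of those 5 overlapped between neighbours in that order. In BMDM the ranges of Mertk and Pros1 overlapped as well.

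**Figure D4:**
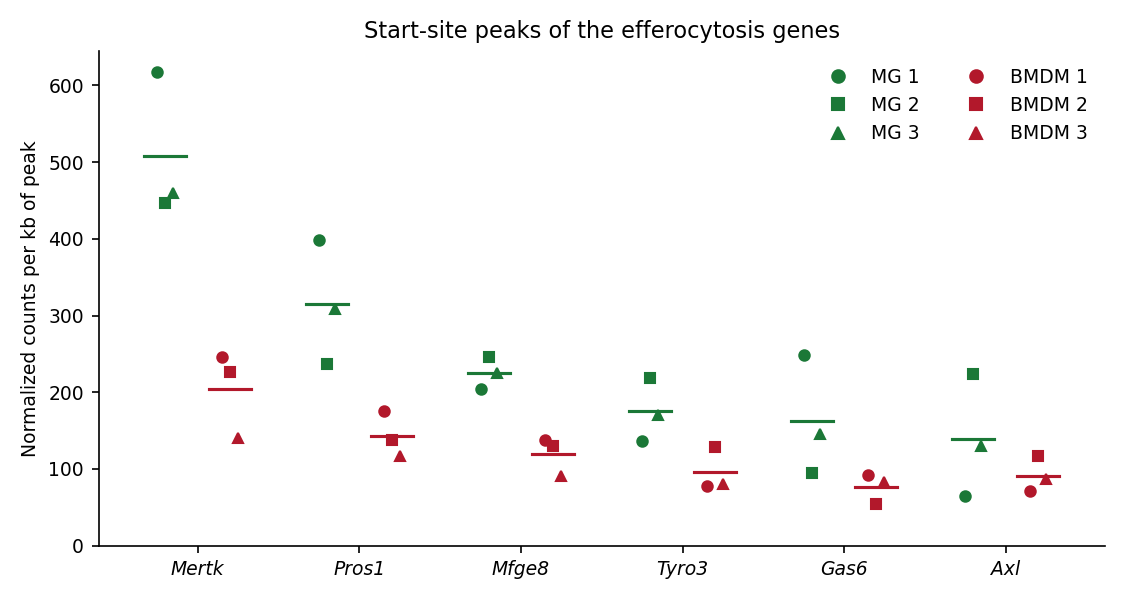
Normalized counts per kb of the start-site peak of 6 genes, 1 point per library, with MG in green, BMDM in red and group means as bars. MG and BMDM separate for every gene but Axl.

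Summed over promoter-class peaks, 0 of the 8 genes passed in limma, where 8.88% of 15249 promoters did. An unadjusted p under 0.05 was found for 3 (Mertk, Pros1 and Gas6), against 17.0% of all promoters, and limma-voom called 0, against 5.13%. The groups did not overlap, with MG higher, in 5 genes (Mertk, Pros1, Gas6, Tyro3 and Mfge8), as in 23.0% of all promoters. The Mertk promoter sums were 1215, 838 and 893 in MG and 553, 485 and 337 in BMDM, a difference of -0.79 ± 0.34 (adjusted p = 0.146 in limma). Without centring it was -1.11 with an adjusted p of 0.0127 in limma, and Pros1 and Gas6 passed as well. In that setting 11.9% of all promoters passed.

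Of the 45 peaks, 43 reached the mean of 10 normalized counts needed for the test, the other 2 being Pros1 peaks. In limma 0 of 43 passed, where 8.90% of 87944 peaks did. An unadjusted p under 0.05 was found at 8, a smaller share than the 24.4% of all peaks. Of these 8 peaks 7 were higher in MG, and 6.67% of all peaks had such a p with the higher level in MG. Limma-voom called 0 of the 43, and 6.11% of all peaks. Every MG library was above every BMDM library at 9 peaks, as at 12.9% of all peaks: the 5 start-site peaks, a second peak each of Gas6 and Tyro3 and 2 more of Pros1. Over the tested member peaks the median difference was -0.33.

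**Figure D5:**
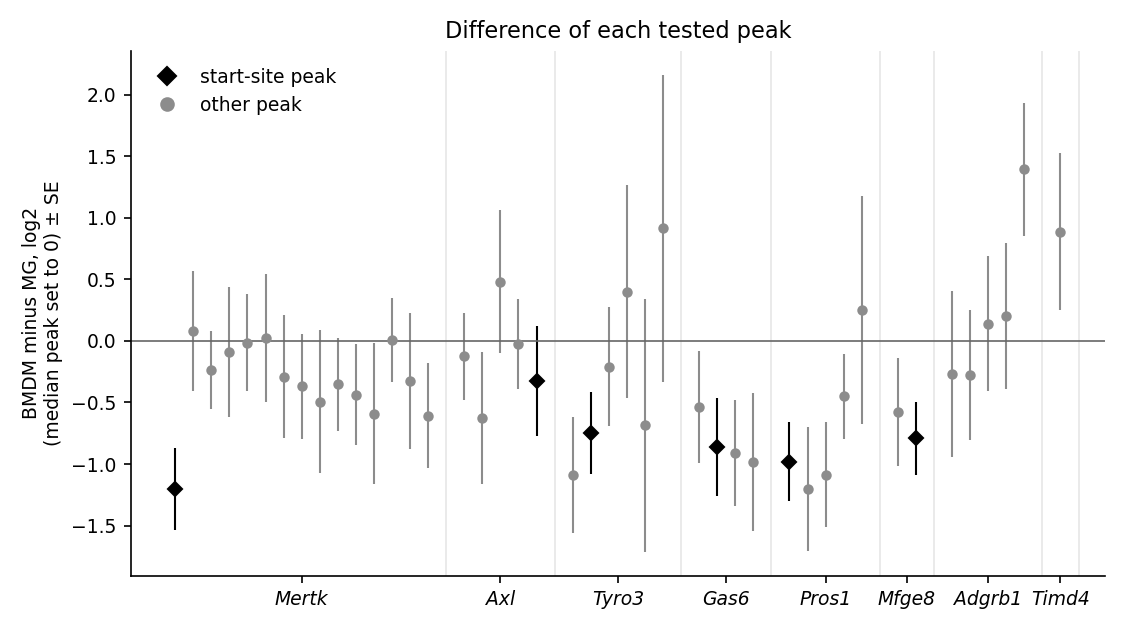
Centred log2 difference, BMDM minus MG, of each of the 43 tested peaks with its standard error, grouped by gene, with start-site peaks as black diamonds. All 6 start-site peaks lie below 0, and the Mertk start-site peak lies apart from the other Mertk peaks.

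In the authors' deposited table, whose log2 fold changes are not centred in this way (their median over all peaks is -0.15), 3 of the 45 peaks had an adjusted p under 0.05, all higher in MG: the start-site peaks of Mertk (log2 fold change -1.31, adjusted p = 0.00358), Pros1 (-1.14, adjusted p = 0.0203) and Mfge8 (-0.91, adjusted p = 0.0478). Of all peaks in it, 5.38% passed with the higher level in MG, and of start-site peaks 8.49%. The remaining member peaks had adjusted p of 0.05 or more in the authors' deposited table, among them the start-site peak of Gas6 at -1.09 with an adjusted p of 0.0751.

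The MG libraries were ordered in opposite ways at different members. At the start sites of Mertk, Pros1 and Gas6, MG 1 was the highest and MG 2 the lowest MG library, and at those of Tyro3, Axl and Mfge8 MG 2 was the highest and MG 1 the lowest. Of the 43 tested peaks 18 had the first order (41.9%, against 31.2% of all peaks) and 15 the other (34.9%, against 35.0%). The microglial marker sum had the first order, at 13501, 8351 and 9265 in MG 1 to 3, and so did the shared myeloid sum, at 13803, 6327 and 8217. The sums of astrocyte, oligodendrocyte lineage and neuronal markers had the other: astrocytes at 3360, 6625 and 4360, oligodendrocyte lineage at 5917, 13933 and 8803, and neurons at 1198, 2790 and 1730. The 6 endothelial markers had neither order, at 5970, 5298 and 5032. The part of other cells in the levels of Tyro3, Axl and Mfge8 was not tested.

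The authors' peak lists, called per library, covered the members unevenly. By an overlap of at least 1 base, the MG 1 to 3 lists held 24, 31 and 16 of the 45 peaks and the BMDM 1 to 3 lists 11, 17 and 5. The lists themselves held 50217, 70739 and 52566 peaks in MG 1 to 3 and 33982, 52631 and 17741 in BMDM 1 to 3. The part of list length and depth in these counts was not tested. The share of all 92864 annotated peaks found in each list, or in MG lists only, was not computed. The counts are therefore no result about the members as such. The lists of libraries 2 and 3 of each group carry other numbers in their deposited names, and were assigned by the archive's record of which sample each belongs to. Found in all 6 lists were 5 peaks: the start sites of Mertk, Pros1 and Mfge8, the Axl peak 11.8 kb into the gene and the upstream Gas6 peak. Of 21 peaks found in MG lists only, 0 were in all 3, and 10 of the 16 peaks found in 1 list were in that of MG 2, among them the Timd4 peak and the 3 downstream peaks of Tyro3. The 2 peaks found in BMDM lists only, the intergenic Adgrb1 peak and an Axl peak, were both in that of BMDM 2. Another 7 peaks were in none of the 6 lists.

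Among 58 further genes of the efferocytosis pathway 56 could be tested. In limma 2 of these passed with the higher level in BMDM, where 3.30% of all genes did, and 0 with the higher level in MG, where 0.989% did, and the median difference was 0.20. Gpr132, a receptor for lysophospholipid signals, rose from 1796, 1194 and 1408 in MG to 3632, 3223 and 2109 in BMDM (1.28 ± 0.33, adjusted p = 0.0382 in limma). Pparg, a lipid-sensing nuclear receptor, rose from 445, 436 and 336 to 760, 921 and 520 (1.09 ± 0.29, adjusted p = 0.0439 in limma). Neither call is firm: limma-voom called 0 of the 56 (as did the fits without MG 3, BMDM 1 or BMDM 2), and 0 of them passed without centring. The largest differences of the other classes, and that of the class of Pparg, did not pass: Slc7a11, the cystine transporter, at 1.26 (adjusted p = 0.0581 in limma), the scavenger receptor Cd36 at 1.08, the ligand Anxa1 at 0.97, the do-not-eat-me signal Cd47 at 0.91, the exchange factor subunit Dock2 at 0.54 and the sheddase Adam17 at 0.14. Of 52 promoters tested, 4 were higher in BMDM in limma (Gpr132, Slc7a11, Anxa1 and Cd300lb), against 4.58% of all promoters, and 1 was higher in MG, against 4.30%. This was Megf10, an engulfment receptor, at -1.21 (adjusted p = 0.0412 in limma, and 0.000108 to 1 over 17 alternatives). The 5 promoters together are a share near that of all promoters, and limma-voom called 1 of the 52.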

How the data were processed

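Per the submitters' processing notes, build mm10 was used, with DESeq2 1.36.0, ChIPseeker 1.32.1, MACS2 2.1.1.20160309, Bowtie2 2.4.1 and cutadapt 1.8.1; no source used here gives settings, read shifts or duplicate removal. The authors deposited log2 values per peak and library, variance-stabilized, with log2 fold changes, p-values, adjusted p-values and the mean normalized signal per peak. The deposited peak lists give a fold enrichment, a score, −log10 p and −log10 q for each peak, per library. The table's 8 other columns of per-sample values matched none of the labels and were left out. It had 93084 lines, of which 155 were repeats, and 65 distinct peaks were not annotated.

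The stabilizing transform was inverted with 1 parameter fitted to the authors' mean (largest relative error 2.4e-06). Multiplied by the recovered size factors, 99.9989 to 100% of values in each library came out whole within 0.02 of a read. Normalized counts were summed per gene and per promoter class, and features with a mean of at least 10 were tested with limma 3.58.1 (R 4.3.3, trend, pseudocount 1), all 6 libraries in 1 fit, and with limma-voom on the reads as an alternative. In the promoter fit the spread is almost wholly pooled over promoters (total degrees of freedom 19050). The same holds over genes with a replicate block (36994) and without MG 1 or without MG 2 (55491). In such fits a feature's own spread carries almost no weight. Differences understate the change of low features. A start-site peak overlaps the gene's RefSeq promoter window (GRCm38.p6, the mm10 assembly). Table starts are counted from 0 and were raised by 1.

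Members, lists and rules were chosen with earlier results of these data known. Named were all 8 genes, for each its promoter peak with the highest mean, every peak that passed and otherwise that with the smallest p, and, of other efferocytosis genes, those that passed and the largest difference per class. The start-site set and other peaks were chosen after their values were seen. Replicate numbers were not used to pair libraries. Alternatives were another scaling, pseudocount, filter, test and peak overlap, and leaving out libraries.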

Additional observations from a re-analysis of the deposited data

How the results depend on the processing

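None of 119 alternatives for the 7 other efferocytosis results that passed (2 genes and 5 promoters), run after seeing the data, reversed one, and 59 no longer passed. Member genes passing numbered 0 in the main setting and 1 (Gas6) with a replicate block, where 13.8% of all genes passed. They numbered 0 to 1 when each library was left out in turn (1, Gas6, without MG 2, where 6.93% passed). In both fits that called Gas6 the spread is almost wholly pooled over genes. Member promoters passing numbered 3 without centring (11.9% of all promoters passed), 1 with total reads as scaling (5.12%) and 1 with cyclic loess (8.08%). With a replicate block there was 1 (11.5%), and Mertk was among those passing in each of these settings. With any 1 library left out there were 0. Member peaks passing numbered 1 without centring (6.87% of all peaks passed), 3 with total reads (8.22%) and 2 with cyclic loess (12.3%). There was 1 with a pseudocount of 5 (9.68%), 1 with robust moderation (9.36%) and 1 on the authors' log2 values (9.32%). With a replicate block there were 3 (17.2%). Leaving out 1 library gave 0 to 6 (3 of 43 without MG 1, where 25.1% of all peaks passed, 6 without MG 2, where 12.7% did). Without MG 3, BMDM 1 or BMDM 2 no peak of the whole table passed. With MG 2 and 3 left out the lone MG library is assumed to vary like BMDM, and likewise for BMDM 2 without BMDM 1 and 3. Other efferocytosis genes passing, of 56, numbered 0 without centring (4.76% of all genes passed), 5 with total reads (5.05%) and 5 with cyclic loess (8.40%). They numbered 0 with limma-voom (3.37%), 4 with robust moderation (6.61%) and 8 with a replicate block (13.8%). With 1 library left out they numbered 0 to 6. There were 6 without MG 1, 5 without MG 2 and 4 without BMDM 3, where 14.6%, 6.93% and 3.68% of all genes passed. There were 0 without MG 3, BMDM 1 or BMDM 2, where 2.01%, 1.15% and 0% passed. Other efferocytosis promoters passing, of 52, numbered 2 with total reads (5.12% of all promoters passed), 1 with limma-voom (5.13%) and 8 with a replicate block (11.5%). With 1 library left out they numbered 0 to 6. There were 6 without MG 1 (13.3%), 0 without MG 3 (2.95%) and 1 without any 1 BMDM library (3.67% to 4.60%). The Mertk start-site share differed by 12 to 18.6 points with 1 library left out, an alternative added after seeing the data. With 50% of the peak covered, the BMDM lists held 5, 11 and 0 members. The causes of these shifts were not tested.

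Over all genes, 183 passed higher in MG and 610 in BMDM, against 543 and 338 without centring; for promoters 656 and 698 became 1397 and 419. The sign of the summed Axl (0.28) and Tyro3 (0.05) differences turned without MG 2 and 3, and the Axl promoter was at -0.28 without centring. In all, 26 of 457 alternatives for 27 single results newly passed and 17 changed sign without a call. Same-numbered libraries had deviations correlated at 0.55, -0.18 and 0.45, and MG 2 with BMDM 3 at 0.56. Deviations from a mean of 3 libraries are tied to each other, so these values cannot settle whether the numbers pair libraries. Depth limits what can be said of Timd4, with 5 reads in MG 1.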
